A study of Rattus norvegicus with 21 samples.

Results

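High-dose treatment with Jakyakgamcho-tang was compared with low-dose treatment in rat PC12 cells, across the water extract and the ethanol extract of the formula. The libraries were chosen by their titles, high dose or low dose, and made up 12 of the 21 in the series. They fell into 4 groups of 3: water extract at 100 µg/mL, ethanol extract at 100 µg/mL, water extract at 4 µg/mL and ethanol extract at 4 µg/mL. The other 9 libraries were 3 of each extract at 20 µg/mL and 3 of a vehicle group that the labels also call untreated, and they enter only where stated. Messenger RNA was sequenced with a directional kit, and each library gives an expected count per gene. A level is given here as CPM, the gene's share of its library's counts scaled to a common depth by the TMM method. Of 32883 gene IDs, 12253 averaged 1 CPM or more in these 12 libraries and were tested. The duration of treatment, the solvent of the vehicle and whether the replicates were separate cultures are not given in the labels, so p-values reflect how far single libraries differed, which may be technical.

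Jakyakgamcho-tang is an East Asian herbal formula made from peony root and licorice root, given traditionally for muscle cramps and pain. Peony root supplies monoterpene glycosides such as paeoniflorin, and licorice root supplies glycyrrhizin and flavonoids; water and ethanol take up these classes of compound to different degrees. PC12 is a line from a rat adrenal pheochromocytoma, a tumour of catecholamine-making chromaffin cells. It is widely used as a model of neurons because nerve growth factor makes its cells stop dividing and grow neurites. The labels call the cells neuronal. The deposited IDs carry no gene names and 0 of 32883 matched the symbol table at hand, so neither this cell type nor any pathway could be checked by its genes, and the genes below are given by their Ensembl rat ID with their measured levels, without function.

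The 12 libraries held 8344416 to 28420922 expected counts. Ethanol low-dose replicate 1 stood apart: it had the fewest counts, its 10 most abundant genes took 5.54% of its counts against 6.97% to 7.93% in the other 11, and its mean fragment length was 193.8 bases, below the 205.3 to 231.1 bases of the other 11. The median gene of that library lay 0.192 (log2) away from its group, against 0.0474 to 0.112 in the other 11. Fragment lengths averaged 222.0 ± 5.35 bases in water high-dose and 226.6 ± 2.9 bases in water low-dose libraries (SD, n = 3 each), and 220.6 ± 9.24 bases in ethanol high-dose and 205.1 ± 11.3 bases in ethanol low-dose libraries (SD, n = 3 each), so the dose difference in this measure had opposite directions in the extracts. The main counts and tests that use ethanol low-dose replicate 1 are also given without it. These are bulk libraries, in which fewer cells of a kind and less RNA per cell cannot be told apart.

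Few genes passed the test between the doses, and most changes among them were small. With extract as a covariate, 27 IDs were higher and 5 were lower at the high dose (Benjamini-Hochberg adjusted p under 0.05 in edgeR's quasi-likelihood test), 32 in all or 0.261% of the 12253 tested (0.22% higher and 0.0408% lower). The median size of the change among the 32 was 0.32 on the log2 scale, against 0.055 over all genes tested, and 1 of the 32 changed by 2-fold or more. At an unadjusted p under 0.05, 1178 genes (9.61%) passed. Without ethanol low-dose replicate 1, 68 IDs were higher (0.555%) and 36 lower (0.294%), 104 in all (0.849%), and these held all 32. The count depended on single libraries beyond that one: leaving out each of the other 11 in turn gave 10 IDs (without ethanol low-dose replicate 2) to 31 IDs (without ethanol low-dose replicate 3).

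The ID that rose most among those with counts in every library was ENSRNOG00000028812.5. It stood at 18.04, 18.4 and 19.2 CPM in the water high-dose libraries, against 12.04, 12.8 and 13.5 CPM in the water low-dose libraries. With the ethanol extract it stood at 21.3, 23.5 and 21.4 CPM at the high dose, against 16.1, 16.02 and 13.5 CPM at the low dose. All 6 high-dose libraries lay above all 6 low-dose libraries, and the ethanol high-dose libraries were the highest. The log2 change was 0.54 ± 0.0585 (SE; edgeR's quasi-likelihood test, adjusted p = 0.00133), made up of 0.54 in water and 0.55 in ethanol.

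ENSRNOG00000014387.4 rose by nearly as much from a higher level. Its water libraries held 77.2, 78.5 and 84.3 CPM at the high dose, against 56.9, 52.3 and 64.04 CPM at the low dose. Its ethanol libraries held 75.2, 74.3 and 67.8 CPM at the high dose, against 43.8, 49.7 and 52.4 CPM at the low dose. Every high-dose library exceeded every low-dose library, and the lowest 2 were low-dose libraries of the ethanol extract. The log2 change was 0.52 ± 0.058 (SE; edgeR's quasi-likelihood test, adjusted p = 0.00133), with 0.47 in water and 0.56 in ethanol. Of the 17 IDs named from the 12-library fit, this ID and ENSRNOG00000028812.5 passed the test under all 23 alternative settings.

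ENSRNOG00000004512.7 and ENSRNOG00000009629.6 rose more in the ethanol extract than in the water extract by their fitted values, without a difference that passed the test. ENSRNOG00000004512.7 stood at 69.4, 66.8 and 63.6 CPM in water high-dose and 50.4, 57.8 and 53.2 CPM in water low-dose libraries, and at 74.3, 66.9 and 73.04 CPM in ethanol high-dose and 50.5, 49.4 and 51.3 CPM in ethanol low-dose libraries. The doses did not overlap over the 12 libraries; the change was 0.40 ± 0.0516 (log2, SE; edgeR's quasi-likelihood test, adjusted p = 0.00281), 0.31 ± 0.0644 in water and 0.50 ± 0.0664 in ethanol, and the difference between extracts had an unadjusted p of 0.0521. ENSRNOG00000009629.6, at 236, 247 and 227 CPM in water high-dose and 177, 203 and 194 CPM in water low-dose libraries, stood at 283, 292 and 284 CPM in ethanol high-dose and 209, 230.1 and 209 CPM in ethanol low-dose libraries. Its doses separated within each extract, but one ethanol low-dose library lay above the lowest water high-dose library; the ethanol groups were the higher ones on average at both doses. The change was 0.36 ± 0.0434 (log2, SE; edgeR's quasi-likelihood test, adjusted p = 0.0019).

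ENSRNOG00000050586.2 had 20.4, 19.6 and 21.8 CPM in water high-dose and 16.7, 16.5 and 15.8 CPM in water low-dose libraries, and 22.4, 22.8 and 23.5 CPM in ethanol high-dose and 17.5, 17.9 and 14.8 CPM in ethanol low-dose libraries. The 12 libraries separated by dose with no overlap, and the change was 0.40 ± 0.0578 (log2, SE; edgeR's quasi-likelihood test, adjusted p = 0.00903). RSEM gave this ID a fractional count in 2 libraries, so some of its reads also matched other genes. ENSRNOG00000014258.4 was among the least abundant, at 4.85, 4.39 and 4.52 CPM in water high-dose and 3.32, 3.66 and 3.05 CPM in water low-dose libraries, and 5.16, 5.10 and 4.78 CPM in ethanol high-dose and 3.59, 3.31 and 3.13 CPM in ethanol low-dose libraries. It too separated completely, with a change of 0.52 ± 0.0858 (log2, SE; edgeR's quasi-likelihood test, adjusted p = 0.0173). The adjusted p of this ID was 0.0677 with the replicate number as a block within each extract.

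The other higher IDs named by size covered a wide range of levels. ENSRNOG00000010332.6, the most abundant of them, ranged over 460.3 to 587 CPM (median 536) in the 6 high-dose libraries, against 383 to 455 CPM (median 414) in the 6 low-dose libraries (log2 change 0.34 ± 0.0599). ENSRNOG00000056940.1 ranged over 214 to 241 CPM (median 222) at the high dose, against 146 to 197 CPM (median 177) at the low dose (log2 change 0.34 ± 0.0618). Neither range overlapped its counterpart. ENSRNOG00000012703.2 ranged over 16.6 to 20.6 CPM (median 17.9) at the high dose, against 13.4 to 15.1 CPM (median 14.5) at the low dose (log2 change 0.34 ± 0.0602). ENSRNOG00000007041.6 ranged over 7.52 to 10.1 CPM (median 8.45) at the high dose, against 5.53 to 6.83 CPM (median 6.45) at the low dose (log2 change 0.42 ± 0.0808). These also separated without overlap, whereas ENSRNOG00000006681.4 did so in water alone: it ranged over 41.9 to 48.4 CPM (median 46.4) at the high dose, against 30.2 to 42.1 CPM (median 34.8) at the low dose, and the highest low-dose library, ethanol replicate 1, lay just above the lowest high-dose library, which was also an ethanol one. Its log2 change was 0.38 ± 0.063 with that library and 0.42 ± 0.0537 without it. The adjusted p of these 5 IDs lay between 0.0173 and 0.0402 in edgeR's quasi-likelihood test, and each lost its call for 4 to 9 of the 12 libraries left out singly. With a replicate block within each extract, ENSRNOG00000007041.6 and ENSRNOG00000056940.1 had an adjusted p of 0.0696.

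5 IDs fell. ENSRNOG00000024825.5, the most abundant, stood at 159.5, 160.1 and 168 CPM in water high-dose and 205, 184 and 199 CPM in water low-dose libraries, and at 148, 153 and 146 CPM in ethanol high-dose and 172, 188 and 185 CPM in ethanol low-dose libraries. Every high-dose library was below every low-dose library; the log2 change was -0.28 ± 0.0378 (SE; edgeR's quasi-likelihood test, adjusted p = 0.0046), nearly equal in water (-0.27) and ethanol (-0.29). ENSRNOG00000052725.1 had the largest fall: 11.4, 12.02 and 13.4 CPM in water high-dose against 15.3, 14.1 and 16.3 CPM in water low-dose libraries, and 11.2, 12.1 and 10.4 CPM in ethanol high-dose against 17.7, 14.2 and 15.99 CPM in ethanol low-dose libraries. It also separated without overlap, with a log2 change of -0.40 ± 0.0739 (SE; edgeR's quasi-likelihood test, adjusted p = 0.0324, or 0.0811 with a replicate block within each extract).

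ENSRNOG00000011789.7 had 66.4, 62.5 and 59.7 CPM in water high-dose and 74.8, 70.2 and 74.3 CPM in water low-dose libraries, and 45.6, 50.2 and 46.5 CPM in ethanol high-dose and 60.2, 62.6 and 63.4 CPM in ethanol low-dose libraries. Its doses separated within each extract but not over all 12; the ethanol groups were the lower ones at both doses. The log2 change was -0.30 ± 0.0471 (SE; edgeR's quasi-likelihood test, adjusted p = 0.0113), with -0.22 in water and -0.39 in ethanol. ENSRNOG00000058057.2 ranged over 15.4 to 20.2 CPM (median 18.1) at the high dose, against 20.3 to 24.3 CPM (median 22.3) at the low dose, without overlap (log2 change -0.30 ± 0.0465, adjusted p = 0.0113 in edgeR's quasi-likelihood test). With effective length offsets, which account for the length of the transcripts counted, its change was -0.35 and did not pass (adjusted p = 0.375). ENSRNOG00000005492.6 ranged over 65.2 to 84.2 CPM (median 72.8) at the high dose, against 79.5 to 94.4 CPM (median 89.5) at the low dose; here the ranges overlapped, although the doses separated within each extract (log2 change -0.27 ± 0.0506, adjusted p = 0.0402 in edgeR's quasi-likelihood test, or 0.0821 with a replicate block within each extract). The plot of the named levels by library shows these IDs group by group.

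**Figure D1:**
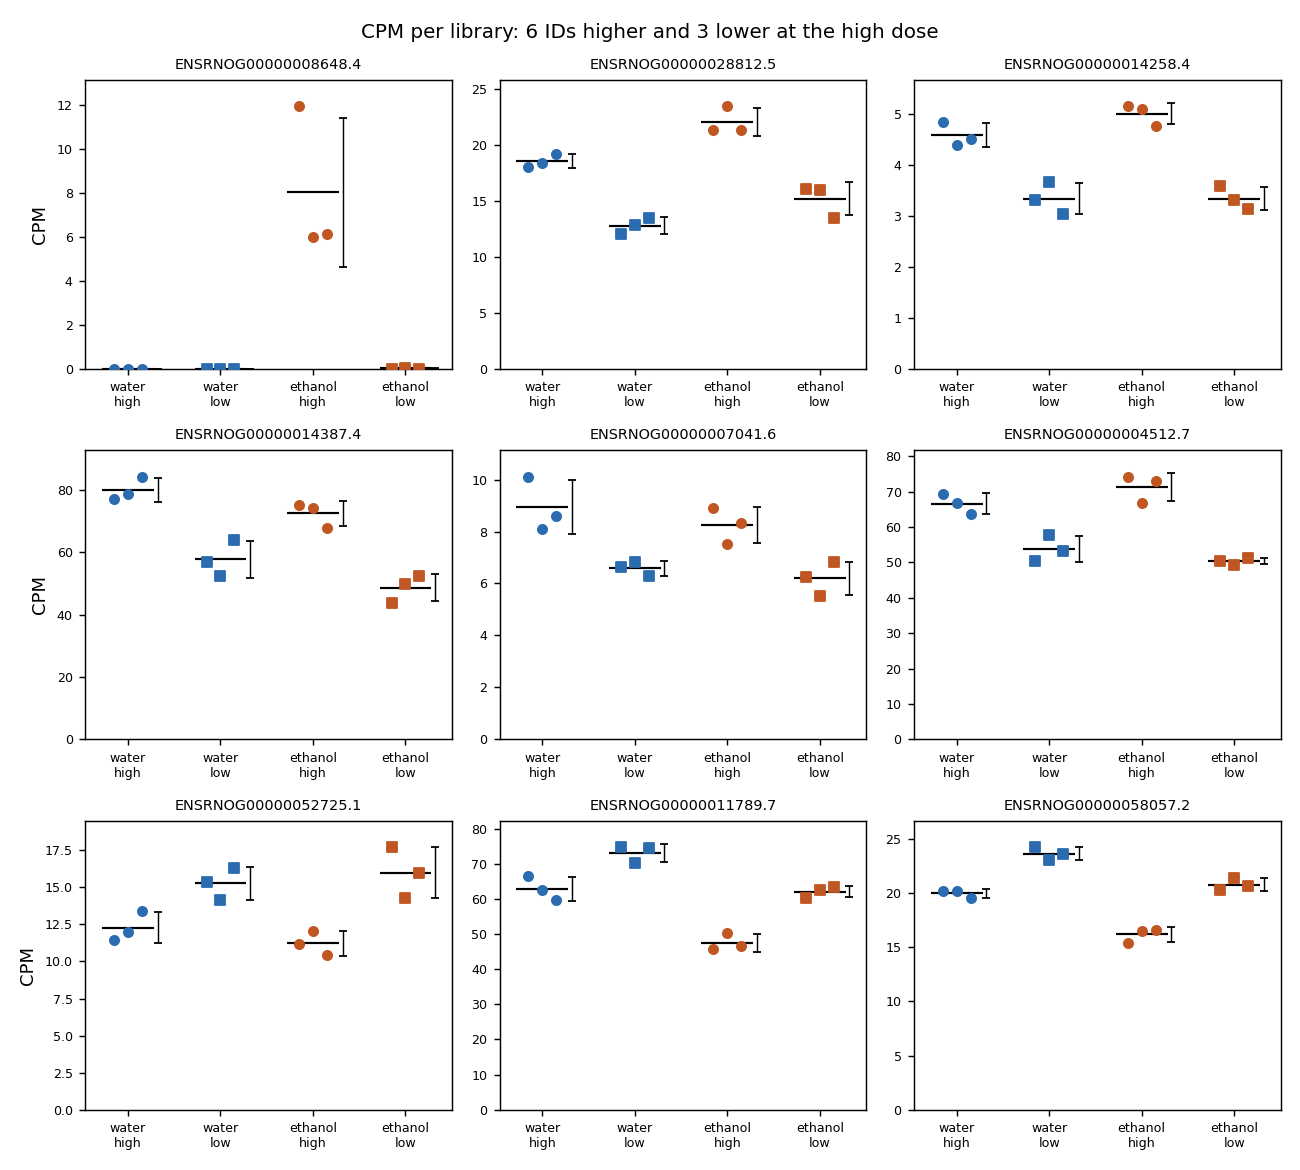
CPM of IDs named from the 12-library fit in each high-dose and low-dose library, by extract; each point is 1 library, each axis starts at 0 and its scale differs between panels. Horizontal lines are means and the bars beside them the SD (n = 3). In ENSRNOG00000028812.5 and ENSRNOG00000014387.4 the 3 high-dose points lie above the 3 low-dose points in both extracts, and in ENSRNOG00000052725.1 they lie below.

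Single libraries decided many of these calls. 6 of the 17 IDs named from the 12-library fit passed with any single library left out: ENSRNOG00000028812.5, ENSRNOG00000014387.4, ENSRNOG00000004512.7, ENSRNOG00000050586.2, ENSRNOG00000009629.6 and ENSRNOG00000024825.5. Of the 17, 11 lost their call without ethanol low-dose replicate 2, 9 without ethanol high-dose replicate 1, 7 each without water high-dose replicate 2 and water low-dose replicate 1, and 2 to 5 without each of 7 other libraries. With all 21 libraries in the fit, which then share 1 estimate of the spread, 13 of the 17 lost their call and ENSRNOG00000028812.5, ENSRNOG00000014387.4, ENSRNOG00000006681.4 and ENSRNOG00000052725.1 passed. There the adjusted p was 0.332 for ENSRNOG00000004512.7, 0.898 for ENSRNOG00000050586.2, 0.0775 for ENSRNOG00000009629.6, 0.0933 for ENSRNOG00000024825.5, ENSRNOG00000012703.2 and ENSRNOG00000005492.6, and 0.199 for ENSRNOG00000014258.4 (edgeR's quasi-likelihood test). It was 0.071 for ENSRNOG00000007041.6, 0.143 for ENSRNOG00000010332.6, 0.33 for ENSRNOG00000056940.1, 0.117 for ENSRNOG00000011789.7, 0.217 for ENSRNOG00000058057.2 and 1 for ENSRNOG00000008648.4. None of the 17 lost its call without ethanol low-dose replicate 1. There ENSRNOG00000028812.5 changed by 0.56 ± 0.0579, ENSRNOG00000014387.4 by 0.49 ± 0.05 and ENSRNOG00000024825.5 by -0.29 ± 0.0356 (log2). The estimate that moved most on the log2 scale among those with counts in every library was that of ENSRNOG00000056940.1, at 0.28 ± 0.0414 without that library and 0.34 ± 0.0618 with it. No change turned its direction under any of the 23 settings. The other 8 IDs called in the 12-library fit and not named by size or below were all higher, by 0.20 to 0.33 on the log2 scale.

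ENSRNOG00000008648.4 was the exception to the small changes, and it was counted almost entirely in ethanol high-dose libraries. It had 11.9, 6.01 and 6.12 CPM in the ethanol high-dose libraries, against 0, 0.0570 and 0 CPM in the ethanol low-dose libraries. All 6 water libraries of both doses and all 3 vehicle libraries stood at 0, and ethanol medium-dose replicate 2 stood at 3.91 CPM while the other two rounded to 0. The summed counts were 474 in the ethanol high-dose and 1 in the ethanol low-dose libraries, a ratio of 371 (95% interval 66.3 to 14700, counting error only). It passed the filter on low counts only through the ethanol high-dose libraries, so it had to differ. Its adjusted p was 0.0019 in edgeR's quasi-likelihood test, 0.065 there without ethanol low-dose replicate 2, 1 there with all 21 libraries in the fit, and 0.121 in limma-voom or 0.0805 with a weight per library; DESeq2 gave it no adjusted p. RSEM gave it fractional counts in 6 libraries, so its reads also matched other genes.

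The question of whether each ID moved in both extracts was read from a fit with 1 coefficient per group. Of the 32 IDs, 31 had the same direction in water and in ethanol and an unadjusted p under 0.05 in each, the exception being ENSRNOG00000008648.4; over all genes tested, 137 (1.12%) met that condition and 49.7% had the same direction. In 30 of the 32 the 3 high-dose and 3 low-dose libraries did not overlap within either extract, in the same direction, against 242 genes (1.98%) over all tested, 1.07% with the high dose above and 0.906% with it below. A further 0.718% of all genes separated by dose in opposite directions in the extracts, and none of the 32 was among them. The 32 were called on both extracts together, which favours IDs that moved in both, so these counts describe the set and are no separate evidence. Within water alone, 0 genes passed the adjusted threshold (989, or 8.07%, at an unadjusted p under 0.05; 32 with DESeq2 and 0 with limma-voom), and within ethanol alone 8 were higher and 2 lower (0.0816%; 1080, or 8.81%, at an unadjusted p under 0.05). The difference of the dose effect between extracts passed for 0 genes (812 at an unadjusted p under 0.05; 5 with DESeq2 and 0 with limma-voom), and among the 32 its smallest adjusted p was 0.705. Among the 26 higher IDs other than ENSRNOG00000008648.4, the median log2 change was 0.31 in water and 0.33 in ethanol. Among the 5 lower IDs it was -0.27 in water and -0.36 in ethanol.

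**Figure D2:**
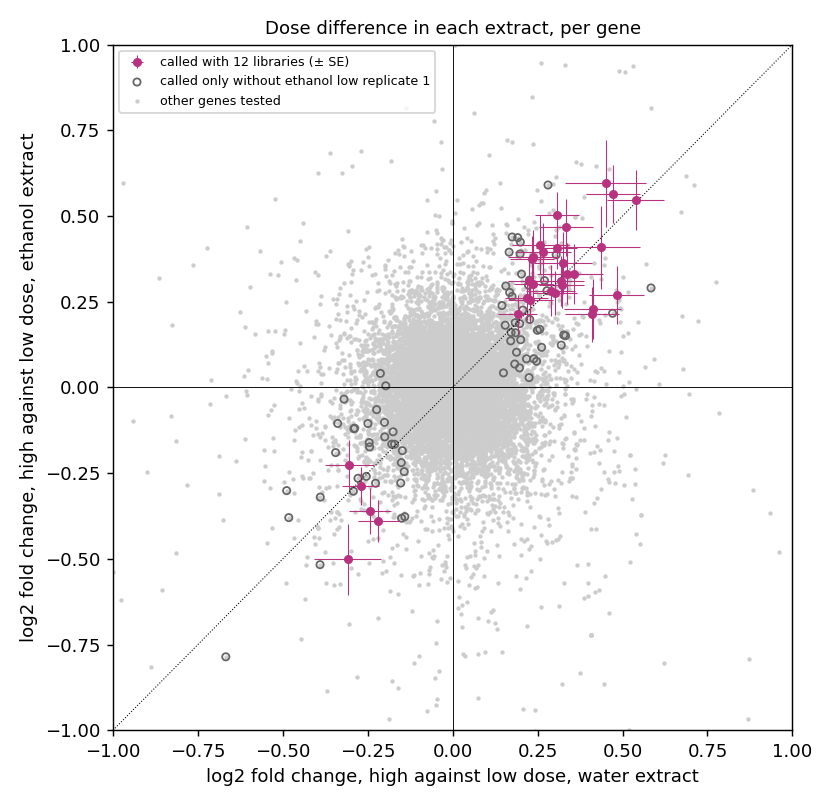
Log2 change of high over low dose in the ethanol extract (vertical axis) against that in the water extract (horizontal axis), from 12 libraries; both axes end at 1 unit from 0. Grey dots are other genes tested, filled points with SE bars the IDs called with 12 libraries and open circles those called only without ethanol low-dose replicate 1. Each ID called with 12 libraries that is drawn lies at the upper right or lower left, while the grey cloud shows no slope; ENSRNOG00000008648.4, at 0 in water, lies outside the axes.

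Each extract was also fitted alone, so that genes could be chosen in one and read in the other, which share no libraries. In water, 73 genes had an unadjusted p under 0.001, and 60 of them (82.2%) had the same direction in ethanol, against 49.3% of all genes. Of these 73, 29 also had an unadjusted p under 0.05 in ethanol with the same direction and 0 with the opposite one, against 405 and 258 of all genes at an unadjusted p under 0.05 in both. The 48 that were higher at the high dose in water had a median log2 change of 0.32 there and 0.22 in ethanol, and the 25 that were lower had -0.34 in water and -0.12 in ethanol. In ethanol, 19 genes had an unadjusted p under 0.001, and 14 (73.7%) had the same direction in water. Without ethanol low-dose replicate 1 the shares were 62 of 73 (84.9%) and 77 of 107 (72.0%), against 55.5% of all genes. Over all 12253 genes, the water and ethanol changes had a Pearson r of -0.075 and a Spearman rho of 0.00759 with all 12 libraries, and 0.0572 and 0.151 without ethanol low-dose replicate 1. These are correlations across genes, which are not independent replicates, and the sign of r turned with that 1 library.

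Leaving out ethanol low-dose replicate 1 brought in 41 more higher IDs and 31 more lower IDs, with smaller changes (median 0.23 for the added higher and -0.24 for the added lower IDs on the log2 scale). All 104 IDs but ENSRNOG00000008648.4 had the same direction in both extracts, 98 also with an unadjusted p under 0.05 in each (220 genes, 1.80%, over all tested), and 94 had no overlap within either extract (488 genes, 3.98%). With 11 libraries, 15 IDs were higher and 5 lower within water (0.163%), and 28 were higher and 20 lower within ethanol (0.392%). The difference of the dose effect between extracts passed for 1 gene (0.00816%), which is not among the 104. The 12 higher and 12 lower IDs of largest change that had not yet been named are described next.

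Among the higher ones, 7 had passed with 12 libraries too. ENSRNOG00000014117.7, the most abundant, stood at 1038, 1197 and 1155 CPM in water high-dose and 848, 954 and 884 CPM in water low-dose libraries, and at 1215, 1136 and 1124 CPM in ethanol high-dose and 1063, 810.0 and 889 CPM in ethanol low-dose libraries. Ethanol low-dose replicate 1 was the one low-dose library within the high-dose range, and the log2 change was 0.39 ± 0.0474 without it and 0.33 ± 0.0608 with it (edgeR's quasi-likelihood test, adjusted p = 0.000328 and 0.0323). ENSRNOG00000021403.2 ranged over 658 to 742 CPM (median 694) at the high dose, against 546 to 647 CPM (median 558) at the low dose, without overlap (log2 change 0.32 ± 0.0363 with 11 libraries). ENSRNOG00000057078.1 ranged over 113 to 134 CPM (median 119) at the high dose, against 88.1 to 107 CPM (median 96.6) at the low dose, again without overlap (log2 change 0.32 ± 0.0445 with 11 libraries). ENSRNOG00000028688.7, ENSRNOG00000009117.5 and ENSRNOG00000002176.6 separated completely over all 12 libraries at lower levels, with changes of 0.32 ± 0.05, 0.32 ± 0.0538 and 0.33 ± 0.065 with 11 libraries. ENSRNOG00000056135.1 separated within each extract (0.32 ± 0.0442).

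The other 5 higher IDs passed only without that library. ENSRNOG00000008478.5 had 329, 330.4 and 334 CPM in water high-dose and 300.2, 278 and 286 CPM in water low-dose libraries, and 404, 435 and 374 CPM in ethanol high-dose and 352, 285 and 269.7 CPM in ethanol low-dose libraries. Its high-dose libraries lay above its low-dose libraries in each extract, by 0.20 in water and 0.54 in ethanol (log2, 11 libraries). ENSRNOG00000023546.5 had 899.7, 918 and 762 CPM in ethanol high-dose and 824, 664 and 612 CPM in ethanol low-dose libraries, so that ethanol low-dose replicate 1 lay inside the high-dose range; its change was 0.32 ± 0.0515 without that library and 0.26 ± 0.0649 with it (edgeR's quasi-likelihood test, adjusted p = 0.00467 and 0.14). ENSRNOG00000000543.6 had a log2 change of 0.58 in water and 0.20 ± 0.105 in ethanol, the second of which did not pass (unadjusted p = 0.0782 in edgeR's quasi-likelihood test). The changes of ENSRNOG00000037931.5 were 0.47 in water and 0.37 in ethanol, and those of ENSRNOG00000010658.6 were 0.28 and 0.57. The last had fractional counts in 11 libraries, so its level rests on how RSEM divided reads between genes.

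None of the 12 lower IDs in this second set passed with 12 libraries. ENSRNOG00000014427.7 had 19.2, 19.6 and 21.8 CPM in water high-dose and 31.3, 24.6 and 29.2 CPM in water low-dose libraries, and 20.6, 24.5 and 21.3 CPM in ethanol high-dose and 21.3, 27.6 and 31.4 CPM in ethanol low-dose libraries. Ethanol low-dose replicate 1 was the one low-dose library inside the high-dose range; the change was -0.46 ± 0.0674 without it and -0.40 ± 0.0888 with it (log2; edgeR's quasi-likelihood test, adjusted p = 0.00177 and 0.0896). ENSRNOG00000012671.5 was the most extreme case: that library held 3.13 CPM, against 10.6 to 11.9 CPM in the other 5 low-dose libraries and 7.02 to 10.3 CPM in the 6 high-dose libraries. ENSRNOG00000028624.5 had 53.1, 58.00 and 59.2 CPM in water high-dose and 71.2, 66.6 and 65.6 CPM in water low-dose libraries, and 44.00, 44.98 and 48.5 CPM in ethanol high-dose and 46.6, 57.4 and 59.3 CPM in ethanol low-dose libraries (change -0.29 ± 0.0436 with 11 libraries). ENSRNOG00000014529.7 changed by -0.31 ± 0.0499, ENSRNOG00000024602.6 by -0.35 ± 0.0704, ENSRNOG00000015201.5 by -0.45 ± 0.094, ENSRNOG00000012318.6 by -0.30 ± 0.0664 and ENSRNOG00000006103.7 by -0.31 ± 0.0712 (log2, 11 libraries). ENSRNOG00000006509.7 changed by -0.33 ± 0.0773, ENSRNOG00000003841.5 by -0.28 ± 0.0619 and ENSRNOG00000013962.7 by -0.52 ± 0.118.

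ENSRNOG00000002753.7 had the largest fall in the second set and the lowest level of all named IDs. It stood at 0.538, 0.818 and 0.912 CPM in water high-dose and 1.15, 1.40 and 1.12 CPM in water low-dose libraries, and at 1.01, 1.06 and 0.689 CPM in ethanol high-dose and 1.27, 1.65 and 1.68 CPM in ethanol low-dose libraries. Every high-dose library was below every low-dose library, and the change was -0.76 ± 0.17 (log2, SE, 11 libraries; edgeR's quasi-likelihood test, adjusted p = 0.0394). Its high-dose libraries averaged 0.838 CPM, so it passed the filter on low counts through its low-dose libraries. The authors' TPM, which divides by transcript length, ran the other way in ethanol, with means of 0.757 at the high dose and 0.433 at the low dose, and the same way as CPM in water, with means of 0.663 at the high dose and 0.693 at the low dose. The files list 4 transcripts for this ID. Its call was lost in 9 of the 11 fits with a further library left out, with a replicate block (adjusted p = 0.0653 in edgeR's quasi-likelihood test) and with another filter on low counts (0.0516), and DESeq2 gave it no adjusted p. The block also ended the calls of ENSRNOG00000037931.5, ENSRNOG00000000543.6, ENSRNOG00000010658.6, ENSRNOG00000013962.7, ENSRNOG00000012671.5, ENSRNOG00000006509.7 and ENSRNOG00000012318.6 (adjusted p of 0.0588 to 0.0887). 10 of these 24 IDs passed under every alternative setting of the 11-library comparison, and the other 14 lost their call under at least 1, with 0 reversed.

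To see which dose stood away from vehicle, both doses were set against the 3 vehicle libraries in a fit of 15 libraries, chosen after the data were seen. This uses the same libraries that chose the IDs, and both contrasts share the vehicle, so the values are a description. Of the 27 higher IDs, 16 passed above vehicle at the high dose (3.66% of all genes did) and 1 below it (3.71%). At the low dose, 3 of the 27 passed above vehicle (6.23%) and 6 below it (5.5%). Of the 5 lower IDs, 3 passed below vehicle at the high dose, and 2 passed above it at the low dose. With 14 libraries, 45 of the 68 higher IDs passed above vehicle at the high dose (7.26%) and 18 below it at the low dose (8%), while 16 of the 36 lower IDs passed below it at the high dose (8.45%) and 10 above it at the low dose (7.59%).

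3 patterns against vehicle are described for named IDs, from changes averaged over the extracts. A single extract can differ from the pattern of its ID. The patterns go by which dose passed in the fit of 15 libraries, and a dose that did not pass need not be near vehicle. In the first, the high dose passed and the low dose did not. ENSRNOG00000028812.5 had 11.4, 13.6 and 10.3 CPM in vehicle libraries. It differed from them by 0.78 ± 0.085 at the high dose and 0.24 ± 0.0863 at the low dose (log2, SE). At the low dose its ethanol libraries averaged 15.2 CPM and its water libraries 12.8 CPM, against 11.7 CPM in vehicle. ENSRNOG00000014387.4 had 48.2, 48.4 and 46.97 CPM in vehicle libraries. It differed by 0.67 ± 0.0674 at the high dose and 0.15 ± 0.0671 at the low dose. With 14 libraries its low dose passed as well. Its water low-dose libraries (56.9, 52.3 and 64.04 CPM) all lay above vehicle. Its ethanol low-dose libraries (43.8, 49.7 and 52.4 CPM) lay on both sides of it. ENSRNOG00000004512.7, ENSRNOG00000009629.6 and ENSRNOG00000012703.2 followed this pattern, as did ENSRNOG00000011789.7, ENSRNOG00000058057.2 and ENSRNOG00000024825.5 below vehicle. In ENSRNOG00000012703.2 the low-dose libraries of both extracts (13.4 to 15.1 CPM) all lay above the vehicle libraries (12.96, 12.9 and 13.1 CPM). In ENSRNOG00000011789.7 the ethanol low-dose libraries (60.2, 62.6 and 63.4 CPM) all lay below the vehicle libraries (74.8, 74.1 and 67.7 CPM). Its water low-dose libraries held 74.8, 70.2 and 74.3 CPM. In the second, both doses passed above vehicle: ENSRNOG00000050586.2 differed by 0.92 ± 0.0765 at the high dose and 0.52 ± 0.0775 at the low dose, and ENSRNOG00000008478.5, which was called only without ethanol low-dose replicate 1, by 1.11 ± 0.0809 and 0.79 ± 0.0799. In the third, the low dose passed against vehicle and the high dose did not.

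ENSRNOG00000007041.6, of the third pattern, had 8.39, 9.18 and 9.61 CPM in vehicle libraries; the high dose differed from them by -0.08 ± 0.0948 and the low dose by -0.50 ± 0.0962 (adjusted p = 0.672 and 0.00389 in edgeR's quasi-likelihood test). ENSRNOG00000010332.6 had 536, 538 and 579.5 CPM in vehicle libraries, and the high dose differed by -0.06 ± 0.0707 and the low dose by -0.41 ± 0.07 (adjusted p = 0.659 and 0.00233 in edgeR's quasi-likelihood test). ENSRNOG00000006681.4, ENSRNOG00000002176.6 and ENSRNOG00000057078.1 were also below vehicle at the low dose, and ENSRNOG00000052725.1 was above it, by 0.51 ± 0.0905. In ENSRNOG00000006681.4 the water low-dose libraries (30.2, 34 and 35.2 CPM) lay below the vehicle libraries (46.3, 38.1 and 40.5 CPM). Its ethanol low-dose libraries (42.15, 34.4 and 37.8 CPM) overlapped them. In ENSRNOG00000002176.6 the ethanol high-dose libraries (11.7, 11.5 and 12.4 CPM) also lay below the vehicle libraries (14.2, 13.4 and 13.4 CPM). Its water high-dose libraries held 15.1, 13.02 and 14.1 CPM. ENSRNOG00000005492.6 was above vehicle at the low dose by 0.21 ± 0.0575 and differed from it at the high dose by -0.05 ± 0.0571. That high-dose value averages extracts that differed. Its water high-dose libraries (65.2, 69.2 and 73.85 CPM) lay below the vehicle libraries (75.55, 76.5 and 77.7 CPM). Its ethanol high-dose libraries held 79.3, 84.15 and 71.7 CPM. ENSRNOG00000014258.4, ENSRNOG00000056940.1 and ENSRNOG00000008648.4 passed at neither dose; with 14 libraries ENSRNOG00000014258.4 passed above vehicle at the high dose (adjusted p = 0.0295 in edgeR's quasi-likelihood test). Among the 27 higher IDs, 13 passed at the high dose alone, 5 at the low dose alone, 4 at both and 5 at neither. Over all 12253 genes these counts were 305, 840, 597 and 10511.

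**Figure D3:**
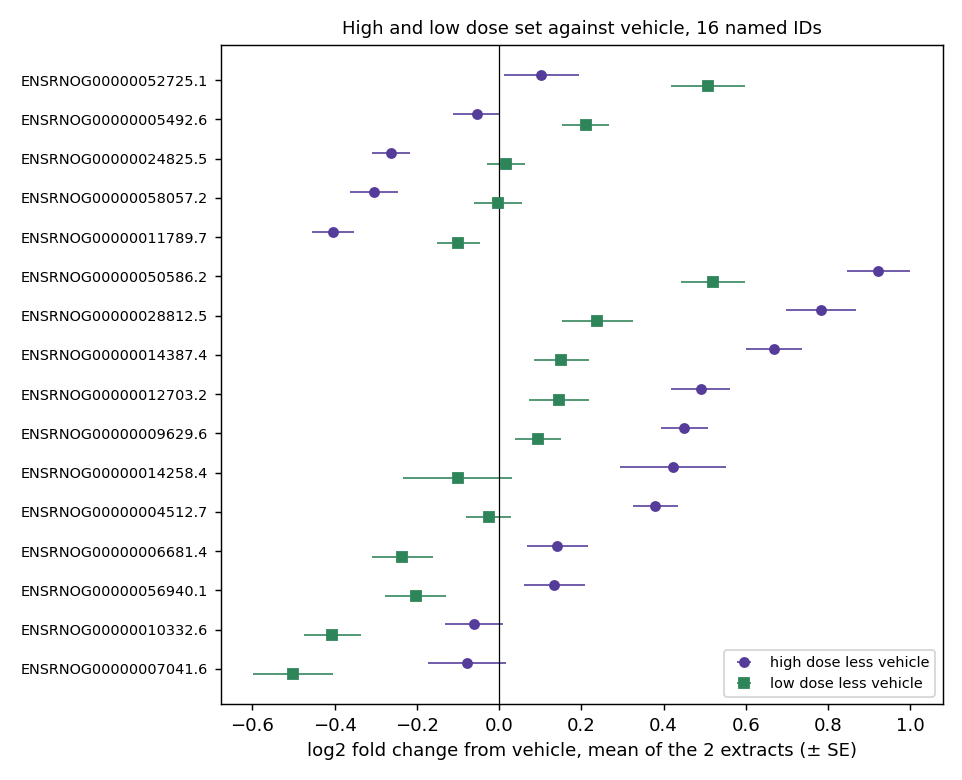
Log2 difference from vehicle at the high dose and at the low dose for named IDs, averaged over extracts, from a fit of 15 libraries; bars are 1 SE and the vertical line marks vehicle. For ENSRNOG00000028812.5 the high dose lies furthest from 0, for ENSRNOG00000007041.6 and ENSRNOG00000010332.6 the low dose does, and for ENSRNOG00000050586.2 both lie above 0.

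The medium dose (20 µg/mL) was read against vehicle in libraries that had no part in choosing the IDs, also after the data were seen. In the water extract, 69 genes were higher and 59 lower at the medium dose than in vehicle (128, 1.04%, of all tested). Of the 27 IDs higher at the high dose, 7 were among them (6 above vehicle and 1 below), and 17 lay above vehicle by sign and 9 below, against 50.3% of all genes above. ENSRNOG00000014387.4 had 74.9, 66.4 and 71.3 CPM in the water medium-dose libraries, above all 3 vehicle libraries (log2 change 0.56; edgeR's quasi-likelihood test, adjusted p = 1.51e-06). ENSRNOG00000012703.2 had 18.1, 16.6 and 18.4 CPM there, against 12.96, 12.9 and 13.1 CPM in vehicle libraries (0.45, adjusted p = 0.00158 in edgeR's quasi-likelihood test). ENSRNOG00000050586.2 had 14.7, 15.6 and 13.9 CPM there, against 10.1, 12.3 and 11.96 CPM in vehicle libraries (0.36, adjusted p = 0.0354 in edgeR's quasi-likelihood test). All of these medium-dose values lay below its water low-dose libraries (16.7, 16.5 and 15.8 CPM), so its level did not rise step by step with dose. The same held for ENSRNOG00000008478.5 (275, 248 and 241 CPM at the medium dose, 300.2, 278 and 286 CPM at the low dose of the water extract). ENSRNOG00000021403.2 changed by 0.21 (adjusted p = 0.0399 in edgeR's quasi-likelihood test). ENSRNOG00000028812.5 changed by 0.17, which did not pass (adjusted p = 0.445 in edgeR's quasi-likelihood test).

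Of the 5 lower IDs, 3 were below vehicle at the water medium dose by sign and 0 passed. With all 21 libraries in the fit 1 gene passed in place of 128, and the adjusted p of ENSRNOG00000014387.4 was 0.106, of ENSRNOG00000012703.2 0.351, and of ENSRNOG00000050586.2 and ENSRNOG00000021403.2 1 (edgeR's quasi-likelihood test). The count of 128 moved to 43 without vehicle replicate 3, 57 without vehicle replicate 1 and 61 without water medium-dose replicate 3. In the ethanol extract 0 genes passed at the medium dose (edgeR's quasi-likelihood test; 1591 at an unadjusted p under 0.05), where replicates 2 and 3 stood apart, with fragment lengths of 202.5 and 178.7 bases and a median distance from their group of 0.217 and 0.326 (log2). Their part in this result was not tested. In ethanol medium-dose replicate 1 alone, 18 of the 27 higher IDs lay above the vehicle mean, against 52.2% of all genes. The median of the 27 higher IDs against vehicle (log2) was -0.02 at 4 µg/mL, 0.08 at 20 µg/mL and 0.21 at 100 µg/mL of the water extract, and 0.02, 0.02 and 0.43 at the same doses of the ethanol extract. In the water extract the medium dose lay between the low and the high dose for 19 of 26 higher IDs and all 5 lower IDs, against 37.1% of all genes. In the ethanol extract it did so for 9 of 27 and all 5, against 17.1% of all genes. Both ends of each interval come from the libraries that chose the IDs. The ethanol values at 4 µg/mL include ethanol low-dose replicate 1 and are not given without it.

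**Figure D4:**
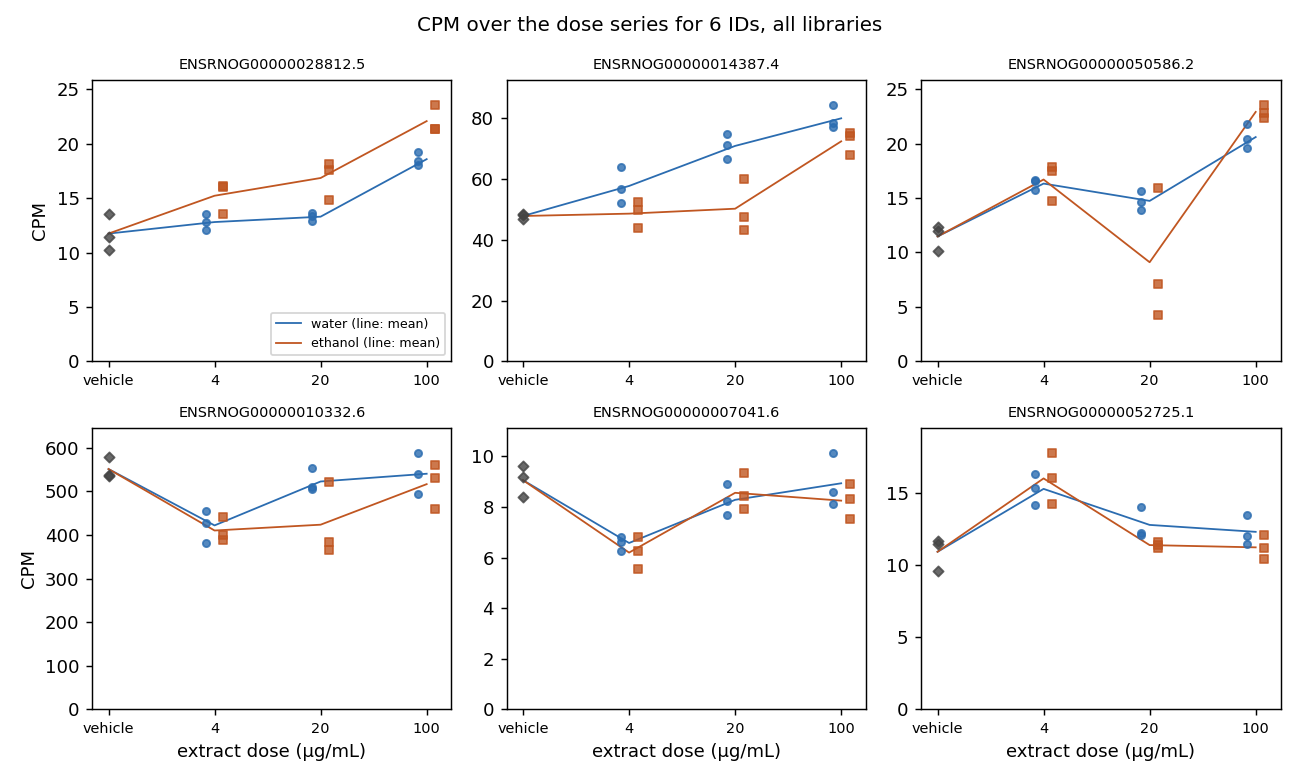
CPM of named IDs in vehicle and at 4, 20 and 100 µg/mL of each extract; each point is 1 library, lines join group means and each axis starts at 0. ENSRNOG00000014387.4 is already above vehicle at 20 µg/mL of the water extract, while ENSRNOG00000007041.6 and ENSRNOG00000010332.6 are lowest at 4 µg/mL in the water extract.

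By the files' gene lengths, higher IDs were shorter and lower IDs longer than the median gene, which is given without a test. The 27 higher IDs had a median length of 1794 bases and the 5 lower IDs one of 3907 bases, against 2222 bases over all genes tested. With 11 libraries these were 2052 bases among 68 higher IDs and 3757 bases among 36 lower IDs. With fragment length as a covariate, 63 IDs passed over both extracts and all 32 were among them, and within ethanol 2 IDs passed where 10 had. High-dose less low-dose fragment length was -4.56 bases in water and 15.4 bases in ethanol. These partly cancel over both extracts, so the kept calls do not show what part fragment length had in the dose difference. That part was not tested.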

How the data were processed

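Messenger RNA of PC12 cells was sequenced after total RNA was made into libraries with a directional kit, per the labels' protocols. The deposited values are expected counts per gene and TPM, with a length and an effective length in bases, per the file headers. The authors quantified with RSEM 1.3.3, per the submitters' processing notes; version of the aligner, genome build, annotation and strand setting are not given in the sources used here. RSEM divides reads that match several genes, and 9.98% of the 32883 IDs had a count that was not whole (tolerance 0.005) in at least 1 library. TPM, as the authors deposited it, was used only to set levels per length.

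Expected counts were rounded to whole numbers. A gene was kept where its CPM averaged 1 or more in the 12 libraries (12253). Tests used edgeR's quasi-likelihood method (version 4.0.16, with limma 3.58.1 and R 4.3.3, a robust fit and TMM), with dose and extract as terms or 1 coefficient per group, and Benjamini-Hochberg adjustment over all genes tested; a gene was called at an adjusted p under 0.05. Alternatives were DESeq2 1.42.0, limma-voom with and without a weight per library, DESeq2's size factors, other filters, effective length offsets, a fragment length covariate, replicate blocks, all 21 libraries in the fit and each library left out. For the comparison without ethanol low-dose replicate 1, some of these were not run. They were library weights, no filter, effective length offsets, the block within each extract and the fit with all groups. The comparisons with vehicle, the medium dose and the reading of each extract's genes in the other were chosen after seeing the data. Mean fragment length was taken as the median, among genes of 1000 bases or more, of length less effective length.

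The 12 libraries, the comparison and the gene lists were chosen with earlier results of these data known. Named IDs were the up to 12 higher and 12 lower with the largest log2 change among those called with 12 libraries, then the same among those called without ethanol low-dose replicate 1 and not yet named. The ID column holds no names and 0 IDs matched a RefSeq symbol table, so 24 gene lists with 277 entries and the cell type markers could not be applied. No 2 libraries of a group agreed within sampling noise (chi-square per degree of freedom 4.78 to 30.1 over 12 pairs). Replicate numbers come from the labels. Deviations of same-numbered high-dose and low-dose libraries had a correlation of 0.233 to 0.334 in ethanol and -0.163 to -0.023 in water. The main fits paired the libraries of neither extract. Replicate blocks entered only as alternatives, and then for both extracts. Tested on simulated data with 12 libraries and 12253 genes, the fit recovered 66% of 1.25-fold, 80% of 1.5-fold, 98% of 2-fold and 98% of 4-fold changes. Of its 176 calls, 5 were false. With 11 libraries the fit recovered 66%, 94%, 98% and 100% at the same folds, and 14 of its 193 calls were false. That rate of false calls was above the one the adjusted threshold aims for, while the rate with 12 libraries was below it. The simulation changed 50 genes at each fold and held no library that stood apart and no pairing. With more changes the adjusted threshold is easier to pass, so the recovered shares may be too high for the real libraries. Counting error limits low IDs more than the others; intervals cover counting error only.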

Additional observations from a re-analysis of the deposited data

Results flagged for a closer look

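In 8 of 82 groups of 6 libraries examined for the named IDs, 1 library lay far from the other 5. Each group holds both extracts. About 1 in 20 groups would be marked by chance in IDs chosen without regard to these libraries. The named IDs were chosen on them, so that rate is no measure here. 6 of the 8 concern ethanol low-dose replicate 1, the library with the fewest counts. These 6 IDs were named from the fit without that library. That choice favours IDs in which it stands apart, so the count is no separate evidence. It was the highest low-dose library for ENSRNOG00000008478.5, at 351.9 CPM against 269.7 to 300.2 CPM in the other 5. It was also the highest for ENSRNOG00000021403.2, at 646.6 CPM against 545.6 to 565.9 CPM, and for ENSRNOG00000023546.5, at 824.3 CPM against 575.8 to 663.5 CPM. It was the lowest low-dose library for ENSRNOG00000012671.5, at 3.127 CPM against 10.64 to 11.93 CPM, for ENSRNOG00000006103.7, at 8.686 CPM against 12.99 to 15.34 CPM, and for ENSRNOG00000003841.5, at 13.9 CPM against 21.79 to 25.51 CPM. Of these 6 IDs, ENSRNOG00000021403.2 passed the dose comparison with that library and the other 5 passed without it alone.

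Water high-dose replicate 1 was the highest high-dose library for ENSRNOG00000000543.6, at 23.05 CPM against 17.42 to 18 CPM in the other 5. Ethanol low-dose replicate 2 was the highest low-dose library for ENSRNOG00000008648.4, at 0.05702 CPM, which is 1 count, while the other 5 stood at 0.

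One ID differed between extracts in its dose effect, ENSRNOG00000058050.1, in the fit without ethanol low-dose replicate 1. Its log2 change was 0.54 ± 0.0652 in ethanol and -0.03 ± 0.0574 in water, a difference of 0.571 ± 0.0867 (edgeR's quasi-likelihood test, adjusted p = 0.0349, SE). With all 12 libraries the difference was 0.67 ± 0.121, with an adjusted p of 0.705.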

How the results depend on the processing

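The comparison of high with low dose over both extracts called 32 IDs (27 higher, 5 lower, 84.4% higher). DESeq2 called 144 (98 higher, 46 lower, 68.1% higher), limma-voom weighted by library 196 (119 and 77, 60.7% higher), the fragment length covariate 63 and all 21 libraries in the fit 7; 31, 31, 32 and 6 of the 32 IDs were among them. Each library left out in turn gave 10 to 104. Without ethanol low-dose replicate 1 the count of 104 became 270 with DESeq2 and 183 with the fragment length covariate, and leaving out a further library gave 43 to 182. Within water, 0 genes became 32 with DESeq2, 93 with library weights, 3 with no filter on low counts, 1 with a replicate block within each extract and 5 with the extract fitted alone, and 0 to 20 with a library left out. Within ethanol, 10 became 82 with DESeq2, 98 with library weights, 18 with no filter, 2 with the fragment length covariate, 1 with all 21 libraries and 2 fitted alone, and 1 to 48 with a library left out. The difference between extracts passed for 0 genes, for 5 with DESeq2, 3 with library weights, 1 with a replicate block within each extract and 0 to 1 with a library left out. The 128 genes of the water medium dose became 1 with all 21 libraries and 43 to 135 with a library left out. Of the higher IDs, 13 to 18 passed above vehicle at the high dose and 4 to 7 below it at the low dose with 1 library left out. For these counts only the vehicle libraries and ethanol low-dose replicate 1 were left out in turn, and no other library. The cause of these shifts was not tested.

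Replicate numbers gave 32 IDs over both extracts as a single replicate block (25 of them shared) and 24 as a replicate block within each extract (20 shared); within ethanol both gave 10 (7 shared). Besides the calls named in the report, the single block ended that of ENSRNOG00000052725.1 (adjusted p = 0.0561) and ENSRNOG00000005492.6 (0.0735), and with 11 libraries it gave 74 IDs and ended the 8 of 24 named calls given above. Over all named IDs and settings, 605 values kept their side of the threshold, 190 lost it and 0 reversed. Low IDs such as ENSRNOG00000002753.7 rest on few counts.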
